A study of Mus musculus with 4 samples.

Results

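The genes described here are 5 ligands of the bone morphogenetic protein (BMP) family, Bmp2, Bmp3, Bmp5, Bmp7 and Gdf6, chosen by name out of 3891 genes read from the table. They were followed across fibroblast groups of the mouse small intestine. Both 10X Genomics libraries came from wild type C57Bl/6 males, 8 weeks old and untreated, and the cells were sorted live as CD45-, EpCAM- and CD31- and positive for gp38 (PDPN), which fibroblasts of the gut wall carry widely. The study also sorted cells into Smartseq2 plates, which were not used here. No source used here gives the number of mice per library, so the library is the replicate (n = 2). The p-values measure only the spread between libraries, pooled over the groups compared together, which may be technical.

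Cells were grouped by which marker genes had at least 1 UMI (unique molecular identifier, 1 per captured RNA molecule). Cells with Sox6 were called Sox6-positive (subepithelial) and were split into cells with Wif1, cells with Adamts18 and cells with neither. Of the remaining cells, those with at least 3 of Inmt, Penk, Vit and Scara5 were called mesothelial-like, those with at least 3 of Chodl, Dner, Thbs2 and Ptn Fibin type, those with Grem1 crypt and those with Lpl villus. The rule placed 15387 of 16891 cells. Library 1 and library 2 held 285 and 2699 Sox6-positive cells, 331 and 1107 mesothelial-like, 100 and 697 Fibin type, 1021 and 4837 crypt, and 611 and 3699 villus cells. Among Sox6-positive cells, 114 and 817 had Wif1, only 18 and 174 had Adamts18, and 153 and 1704 had neither, while 4 cells of library 2 had both and are left aside.

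BMPs are secreted ligands that bind paired type I and type II serine/threonine kinase receptors, which phosphorylate Smad proteins that enter the nucleus and switch on genes such as the Id family. In the intestine BMP signalling is known to be strong in the villus, where it accompanies epithelial differentiation, and low around the crypt base, where stromal antagonists such as Gremlin 1 protect stem cells. Bmp2, Bmp5 and Bmp7 are activating ligands, Bmp3 is an atypical member known to oppose other BMPs, and Gdf6 belongs to the related growth and differentiation factor branch known from joint and skeletal development.

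All 5 genes are protein-coding. On GRCm38, Bmp2 lies at chr2:133552159-133562885 on the plus strand, Bmp7 at chr2:172868012-172940321 on the minus strand, Bmp3 at chr5:98854415-98884396 on the plus strand, Bmp5 at chr9:75775364-75900310 on the plus strand and Gdf6 at chr4:9844372-9862345 on the plus strand. A promoter window of RefSeq (GRCm38.p6) was at hand for 1 of the 5, Bmp5, the ligand with the highest level, and its 249 bases before the annotated start, chr9:75775115-75775363 on the plus strand, are shown because Bmp5 had the largest difference in mean ln value between Sox6-positive cells and the other groups, though not the largest fold.

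Bmp5: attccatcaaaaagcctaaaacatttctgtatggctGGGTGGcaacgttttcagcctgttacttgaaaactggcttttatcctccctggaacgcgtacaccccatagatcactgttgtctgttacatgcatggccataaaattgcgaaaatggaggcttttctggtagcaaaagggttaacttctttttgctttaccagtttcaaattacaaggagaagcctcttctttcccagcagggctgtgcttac

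Capitals mark the only match, at base 37, among 6 short motifs searched on both strands. It is a GLI core, read on the opposite strand as CCACCC, which 27.9% of 32851 windows of this length held. The SOX core ACAAT was held by 27.6% of windows, and the FOX core TGTTTAC by 3.15%. The Sp1-type motif GGGCGG was held by 32.6%, the BMP response motif GGCGCC by 9.52% and the TATA box motif TATAAA by 12.4%. The Bmp5 window was 43.0% G or C, against a median of 52.2%.

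Before the ligands were compared, the groups were checked against genes the rule did not use. Library 1 had a median of 8757 UMIs per cell (range 559 to 26890) and library 2 a median of 6874 (465 to 22450), and 7 cell barcodes occurred in both. Pdgfra was high in Sox6-positive cells (25.5 and 25.2 UMIs per 10000) but also in Fibin type cells (23.4 and 22.3), so it did not separate these groups. The whole list of 11 subepithelial check genes summed to 58.5 and 57.5 in Sox6-positive and 47.7 and 47.0 in Fibin type cells. Its sum was 8.45 to 14.3 in the other groups. Foxl1 was highest in the cells with Adamts18 (0.918 and 1.47), Wt1 in mesothelial-like cells (0.308 and 0.446) and Fibin in Fibin type cells (29.5 and 17.5). The whole mesothelial-like list of Wt1, Gdf10 and Fst, however, summed higher in Fibin type (5.56 and 4.14) than in mesothelial-like cells (2.10 and 2.73), and to 4.08 in cells with Adamts18 of library 2. Ackr4 was higher in mesothelial-like (3.86 and 2.82) than in crypt cells (2.60 and 2.49), and 240 and 673 of the mesothelial-like cells also had Grem1. The whole crypt check list of 4 genes also summed higher in mesothelial-like (45.6 and 36.8) than in crypt cells (36.4 and 32.2). The summed immune marker list ran from 0.112 to 0.397 UMIs per 10000 over the 5 groups and both libraries, and its Ptprc from 0 to 0.0130. Smooth muscle markers summed to 6.19 and 4.66 in Sox6-positive cells, above the other groups (0.245 to 1.71), and their part in the results was not tested.

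Bmp5 had the highest level of the 5 ligands in Sox6-positive cells. Of 19 other BMP, GDF and activin ligands listed, 5 are in the genes read, and the rest were not analysed here. Its level, given throughout as the gene's UMIs per 10000 UMIs of the group, was 8.20 in library 1 and 9.03 in library 2. Its level was lower in the other groups, at 1.11 and 1.45 in villus cells, 0.440 and 0.536 in crypt cells, 0.0360 and 0.146 in Fibin type cells and 0.0121 and 0.166 in mesothelial-like cells. The lowest Sox6-positive value was thus above the highest value of any other group. In order of mean level, Bmp5 in Sox6-positive cells with neither marker passed the test against villus (adjusted p = 5.12e-07, where 34.0% of 1969 genes tested passed), villus against crypt (0.00885) and crypt against Fibin type (0.0246, where 51.4% passed), all by limma. At 2000 UMIs per cell neither villus against crypt (0.248, and 0.271 on log2 summed UMIs) nor crypt against Fibin type (0.380) passed, and without the library as a block the latter did not (0.0558). Fibin type and mesothelial-like cells were not distinguished (0.984).

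Bmp7, an activating ligand best known from kidney and eye, had a sharper boundary. Its level was 4.28 and 3.24 in Sox6-positive cells, 0.105 and 0.241 in villus cells and at most 0.0757 in the crypt, Fibin type and mesothelial-like groups. No pair among these 4 groups was separated in the level order (adjusted p of 0.664 to 0.999, limma).

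Bmp3 was nearly limited to Sox6-positive cells among the 5 groups. Sox6-positive cells held 562 and 2973 Bmp3 UMIs, a level of 1.84 and 1.29, while no other rule group exceeded 0.0465. In library 1 the mesothelial-like and Fibin type cells had 0 Bmp3 UMIs, which allows shares of cells with a UMI of up to 0.906% and 3% by the 3-count limit, with exact intervals reaching 1.11% and 3.62%, for counting error only. In library 2 the level in Sox6-positive cells was 27.8-fold that of villus cells and 90.3-fold that of crypt cells. In library 1 villus and crypt cells held 2 Bmp3 UMIs each, levels of 0.00404 and 0.00222, against 0.0465 and 0.0143 in library 2, so the folds differ between the libraries and none is given for library 1.

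Bmp2 differed less between the groups. Its level was 1.69 and 2.17 in Sox6-positive cells, 1.76 and 1.84 in Fibin type cells, 1.09 and 1.54 in villus cells, 0.853 and 1.16 in crypt cells and 0.529 and 0.671 in mesothelial-like cells. Sox6-positive and Fibin type values overlapped. Among the 7 groups, no 2 neighbours in the order of Bmp2 levels passed the test (adjusted p of 0.0785 to 0.920, limma), although mesothelial-like cells were lower than Fibin type cells (difference in mean ln value -0.50, SE 0.12, adjusted p = 0.00601, lower in both libraries, where 52.1% of genes passed).

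Gdf6 had the opposite pattern. It was highest in mesothelial-like (0.553 and 0.447) and crypt cells (0.488 and 0.497), lower in Fibin type cells (0.0720 and 0.259) and near 0 in Sox6-positive (0.0623 and 0.0992) and villus cells (0.0586 and 0.0483). Crypt against Fibin type, where 51.4% of genes passed, was called (adjusted p = 0.000902, limma) but not on log2 summed UMIs (0.0824), and mesothelial-like against crypt, where 9.55% of genes passed, did not (0.999).

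**Figure D1:**
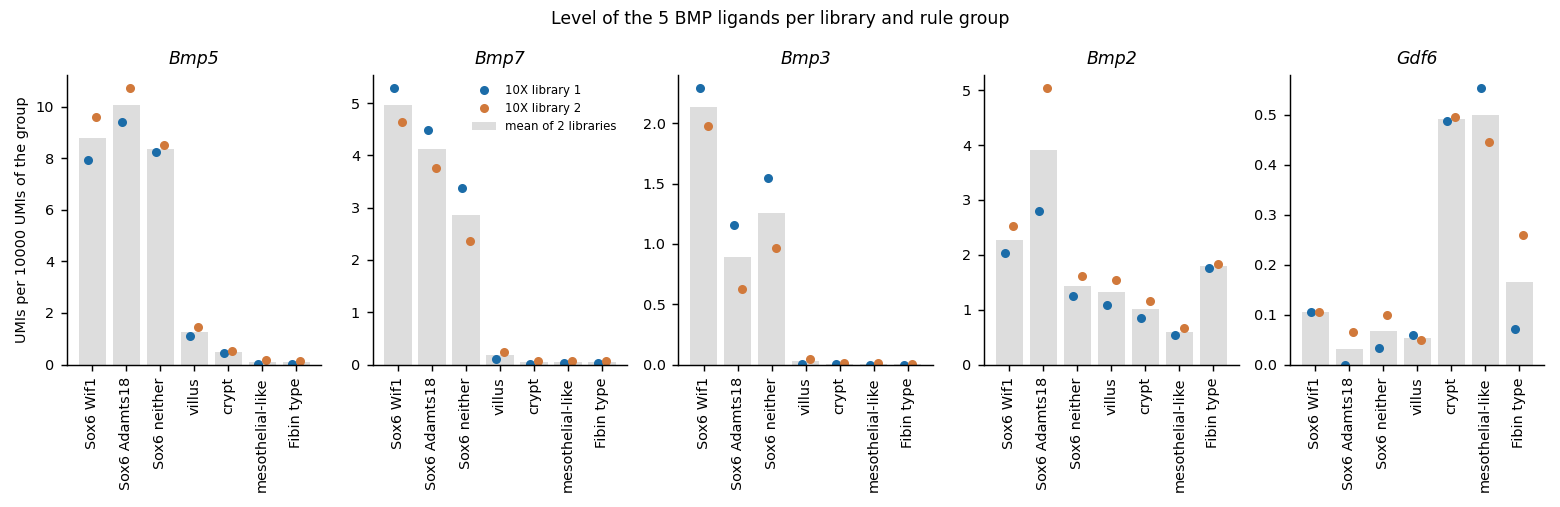
UMIs per 10000 UMIs of each group for the 5 ligands, with 1 dot per library and a bar at the mean of both; each panel has its own vertical scale. Bmp5, Bmp7 and Bmp3 are high in the 3 Sox6-positive groups, Bmp2 has its highest values in cells with Adamts18 (2.80 and 5.03), and Gdf6 is highest in crypt and mesothelial-like cells.

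Sox6-positive cells were then compared with the mean of the other 4 groups in 1 limma fit over all genes. Each cell's values were averaged on the natural log scale within a group and library. Of 1887 genes tested, 69.5% passed at an adjusted p under 0.05, so a call in this contrast is common and the 5 of 5 ligands that passed are read against that share. Bmp5 was higher by 1.88 (SE 0.03, adjusted p = 1.46e-08), Bmp7 by 1.26 (SE 0.05, 9.93e-07), Bmp3 by 0.70 (SE 0.04, 6.49e-06) and Bmp2 by 0.27 (SE 0.03, 0.000268), while Gdf6 was lower by 0.11 (difference -0.11, SE 0.02, 0.00624). The median difference of the 5 ligands was 0.70, against 0.01 over all genes tested. Each direction held in both libraries. The Bmp2 difference was not particular to Sox6-positive cells, since Fibin type cells exceeded the mean of their own 4 others by 0.26 (SE 0.03). Fewer expressing cells and less RNA per cell cannot be told apart in these group means.

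Within Sox6-positive cells the ligands parted. Wif1, a secreted Wnt inhibitor, marked cells with more Bmp7 and Bmp3. Bmp7 was at 5.28 and 4.63 in cells with Wif1 against 3.37 and 2.36 in cells with neither marker, and Bmp3 at 2.29 and 1.98 against 1.55 and 0.969. Of 1969 genes tested, 10.0% passed this contrast. Bmp7 passed (difference 0.51, SE 0.08, adjusted p = 0.00264, limma) and so did Bmp3 (0.40, SE 0.08, 0.010), but on log2 summed UMIs neither did (0.483 and 0.610). Bmp2 (0.32, SE 0.12, 0.162), Bmp5 (0.21, SE 0.06, 0.0751) and Gdf6 (0.03, SE 0.03, 0.731) did not. With cells thinned to 2000 UMIs the Bmp3 difference was 0.17 (adjusted p = 0.321), and it also missed the threshold without cells of a single Sox6 UMI (0.29, 0.0577, a check added after the levels were seen). Cells with Wif1 had more UMIs (median 11976 and 9682) than cells with neither (10178 and 7636.5). Cells with neither marker also held more of the summed villus check markers (63.1 and 72.1 against 28.5 and 38.1 with Wif1) and crypt check markers (3.16 and 6.77 against 1.61 and 3.52), whose part in these differences was not tested.

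Among the Sox6-positive groups, cells with Adamts18, a secreted metalloprotease, had the highest Bmp2 level. Bmp2 was at 2.80 and 5.03 in these cells, 2.03 and 2.53 in cells with Wif1 and 1.24 and 1.62 in cells with neither. In library 1 the level was not shared by the 10 cells with 1 Adamts18 UMI. Their Bmp2 was at 1.42, below 1.61 in Sox6-positive cells without Adamts18. Against cells with neither, 18.0% of genes passed, among them Bmp2 (0.64, SE 0.12, adjusted p = 0.00535, limma), Bmp5 (0.35, SE 0.06, 0.00448) and Bmp7 (0.36, SE 0.08, 0.00904), but neither Bmp3 (-0.09, SE 0.08, 0.445) nor Gdf6 (-0.02, SE 0.03, 0.632). The Bmp2 difference was 0.38 in library 1, where it rests on 18 cells, and 0.90 in library 2 (SD 0.37). Its SE of 0.12 is the same for every pair of groups in the fit. That SE counts each mean alike whatever its number of cells and does not measure the spread of this difference alone. The villus check markers summed to 88.6 and 106 in cells with Adamts18, above cells with neither. The list of 2 markers of interstitial cells of Cajal summed to 0.435 and 0.693 against 0.0859 and 0.0784. In cells with Adamts18 only 1 of these 2 genes had a UMI in either library. The part of either list was not tested. Bmp5 and Bmp7 no longer passed once Sox6-positive cells with a single Sox6 UMI were left out (adjusted p = 0.0843 and 0.105), nor on log2 summed UMIs (0.823 and 0.503).

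Cells with Wif1 and cells with Adamts18 differed in Bmp3, which was 1.16 and 0.623 in the latter. Here 29.4% of genes passed, and of the ligands Bmp3 did (0.49 higher with Wif1, SE 0.08, adjusted p = 0.000791, limma), though not on log2 summed UMIs (0.184). Bmp2 was lower with Wif1 by a margin that missed the threshold (-0.32, SE 0.12, 0.0785) but passed with cells thinned to 2000 UMIs (-0.50, 0.0130).

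Levels were also laid out along the number of marker UMIs per cell, as a description of cells that share a library. These bins are cut on the genes that defined the groups, so they restate the splits above and give them no separate support. Bmp7 was 3.51 and 2.50 in Sox6-positive cells without Wif1 and 6.44 and 5.59 in those with 4 or more Wif1 UMIs. Median depth was 10493 and 7724 UMIs in the former and 12509 and 10853.5 in the latter, and its part was not tested. Bmp2 was 1.61 and 1.95 without Adamts18 and 4.71 and 5.91 with 2 or more Adamts18 UMIs, although only 8 cells of library 1 were in that last bin. At 1 Adamts18 UMI it was 1.42 in library 1 (10 cells), below the level without Adamts18, and 3.88 in library 2. Along Sox6 itself, Bmp3 was higher in each bin, from 0.269 and 0.466 at 1 Sox6 UMI to 2.18 and 1.88 at 6 or more. Bmp5 was also lower at 1 Sox6 UMI (6.65 and 5.72) than at 2 (8.28 and 9.38), and stood at 8.21 and 10.1 at 6 or more. Median depth was 7964.5 and 7069 UMIs at 1 Sox6 UMI and 12439 and 9938 at 6 or more, and its part was not tested.

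In crypt cells Bmp5 and Gdf6 ran in opposite directions along Grem1, the gene of the antagonist Gremlin 1. From 1 Grem1 UMI to 10 or more, Gdf6 went from 0.0857 and 0.116 to 0.833 and 0.855, and Bmp5 from 0.745 and 0.896 to 0.220 and 0.247. Median depth was higher in the last bin (10838 and 9116.5 UMIs) than in the first (7100 and 5863), and its part in this trend was not tested. Gdf6 in mesothelial-like cells also went with Grem1: it was 0.696 and 0.644 in those with Grem1 and 0.0785 and 0.0887 in those without. Leaving out cells that met several rules removed those with Grem1 from the mesothelial-like group, and the Gdf6 difference from crypt cells was then -0.19, which restates this split and is given with no test.

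**Figure D2:**
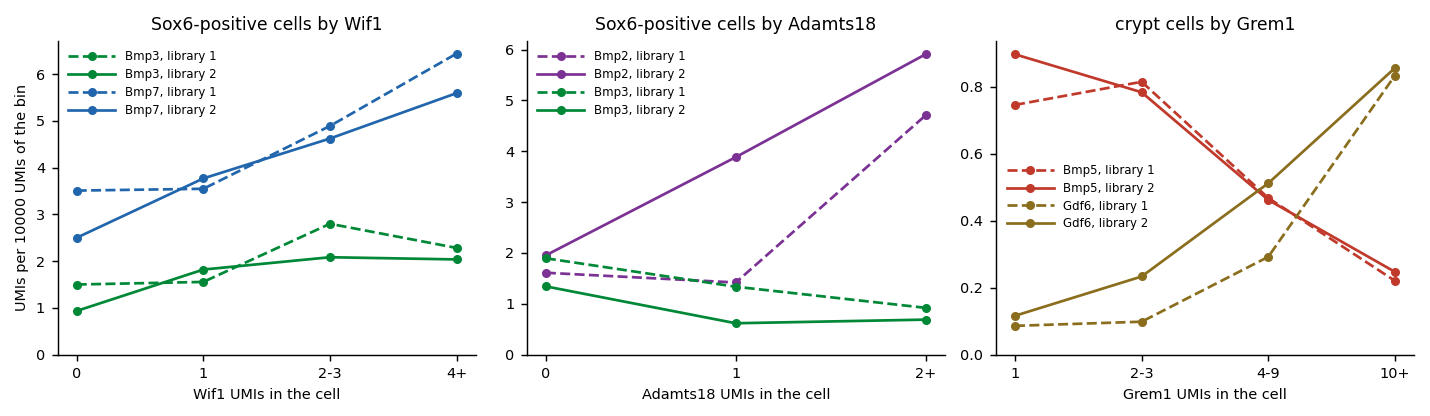
UMIs per 10000 of 2 ligands per panel against the number of Wif1, Adamts18 or Grem1 UMIs in the cell; dashed lines are library 1 and solid lines library 2. Bmp7 is highest at 4 or more Wif1 UMIs (6.44 and 5.59), Bmp2 at 2 or more Adamts18 UMIs (4.71 and 5.91), and in crypt cells the Gdf6 and Bmp5 lines cross.

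In villus cells Bmp2 and Bmp5 also ran in opposite directions along Lpl, the lipoprotein lipase gene. From 1 Lpl UMI to 4 or more, Bmp2 went from 1.52 and 2.17 to 0.843 and 1.21, and Bmp5 from 0.811 and 1.34 to 1.28 and 1.55. The 14 and 465 Sox6-positive cells that also had Grem1 held less Bmp5 (7.03 and 6.23) than those without (8.25 and 9.70). Their Gdf6 level was 0.274 in library 2, against 0.0572 without Grem1, and in library 1 it rested on 2 UMIs.

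Villus and crypt cells were compared directly, since BMP signalling is known to differ along this axis. Bmp5 was lower in crypt than in villus cells (difference -0.31, SE 0.06, adjusted p = 0.00885, limma) and Gdf6 higher (0.21, SE 0.03, 0.00115), where 17.7% of genes passed, but on log2 summed UMIs neither Bmp5 (0.271) nor Gdf6 (0.0517) passed. Bmp2 (-0.07, SE 0.12, 0.920), Bmp7 (-0.06, SE 0.08, 0.863) and Bmp3 (-0.01, SE 0.08, 0.993) did not pass. At 2000 UMIs per cell the Bmp5 difference was -0.22 and no longer passed (0.248). Against villus cells, Bmp5 was also lower in mesothelial-like (-0.51, SE 0.06, 0.00016; 32.7% of genes passed) and Fibin type cells (-0.51, SE 0.06, 9.92e-05; 44.5% passed).

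Detection was compared at an equal depth of 2000 UMIs, with exact 95% binomial intervals that cover counting error only. Cells with 2 or more UMIs of the immune gene Ptprc, which should lack the ligands, served as background; there were 45 in library 2 (median 4925 UMIs) and 1 in library 1. Bmp5 was found in 79.9% (74.7 to 84.4) and 76.1% (74.5 to 77.7) of Sox6-positive cells, against 16.6% and 21.4% of villus cells, 6.73% and 9.42% of crypt cells and 4.76% (0.582 to 16.2) of the Ptprc cells. The crypt share lies inside the background interval and, at this depth, was not distinguishable from it. Bmp7 was found in 51.9% and 43.7% of Sox6-positive cells and Bmp3 in 29.3% and 20.7%, against at most 4.18% and 0.913% of any other rule group and 2.38% and 0% of Ptprc cells. Bmp2 was found in 19.4% and 30.7% of Sox6-positive and 31.0% and 27.9% of Fibin type cells, against 2.38% (0.0603 to 12.6) of Ptprc cells. The mesothelial-like shares of 9.79% and 11.3% lie inside that interval and were not distinguishable from background at this depth. At full depth they were 26.6% and 29.0%, against 6.67% (1.40 to 18.3) of the Ptprc cells of library 2, which were shallower. Gdf6 was found in 11.6% and 8.71% of mesothelial-like and 8.32% and 7.84% of crypt cells, and in 0 of 42 Ptprc cells. The limit of 3 counts for these cells is 7.14% and their exact interval reaches 8.41%, so the crypt shares lie above the former but inside the latter and were not distinguishable from background at this depth. At full depth the Sox6-positive shares were 96.8% and 91.3% for Bmp5, 87.7% and 78.8% for Bmp7, 70.5% and 51.2% for Bmp3, 62.1% and 63.8% for Bmp2 and 5.26% and 6.34% for Gdf6.

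**Figure D3:**
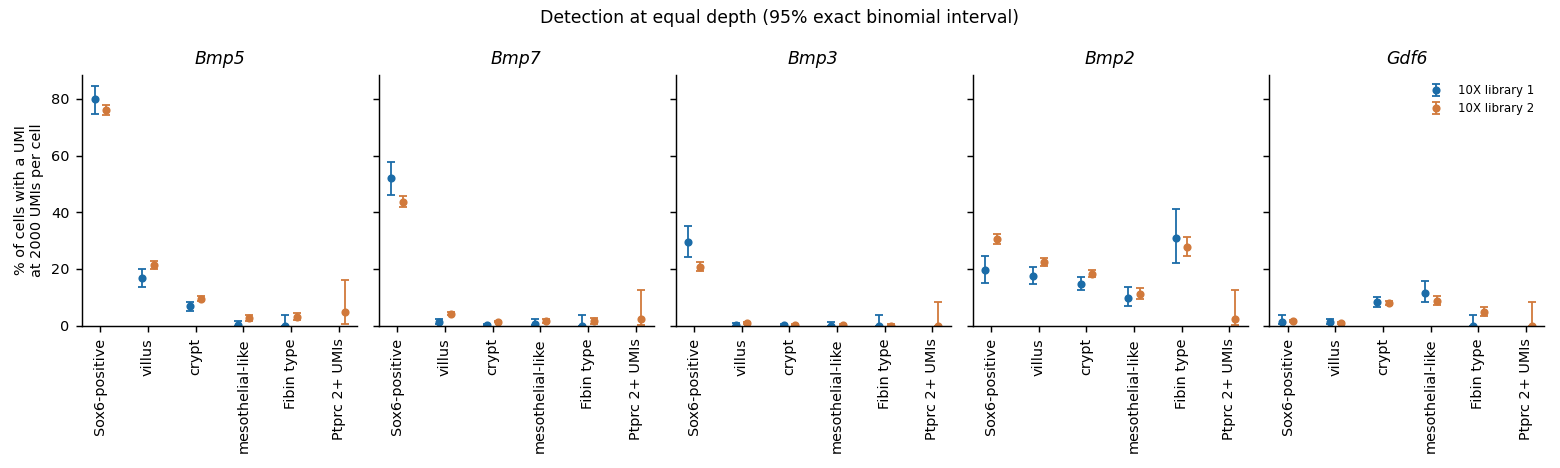
Percent of cells with at least 1 UMI of each ligand after thinning to 2000 UMIs, by group and library, with 95% exact binomial intervals; Ptprc cells are the background. Bmp5 is found in 79.9% and 76.1% of Sox6-positive cells, and the Bmp2 shares of Sox6-positive and Fibin type cells overlap.

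Single Sox6-positive cells carried several ligands at once. At full depth, 30.9% and 35.1% of them had UMIs of exactly 3 of the 5 ligands and 45.3% and 33.4% of exactly 4. In crypt cells 1.76% and 3.29% had 3 ligands, and in villus cells 2.95% and 3.95%. At 2000 UMIs 20.5% and 19.3% of Sox6-positive cells still had 3, and at most 1.16% of cells of any other rule group.

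Pairs of ligands were set against the share expected if they were independent within a group and library. At 2000 UMIs, Bmp5 and Bmp7 were found together in 42.8% and 37.1% of Sox6-positive cells, 1.03 and 1.12 times the expected share. Bmp3 and Bmp7 were together in 16.6% and 12.2%, 1.09 and 1.34 times the expected share. In crypt cells, Bmp5 and Gdf6 were found together less often than expected: at full depth in 21 and 150 cells, 0.36 and 0.54 times the expected number. These ratios are descriptions, since cells of 1 library share their source and depth.

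**Figure D4:**
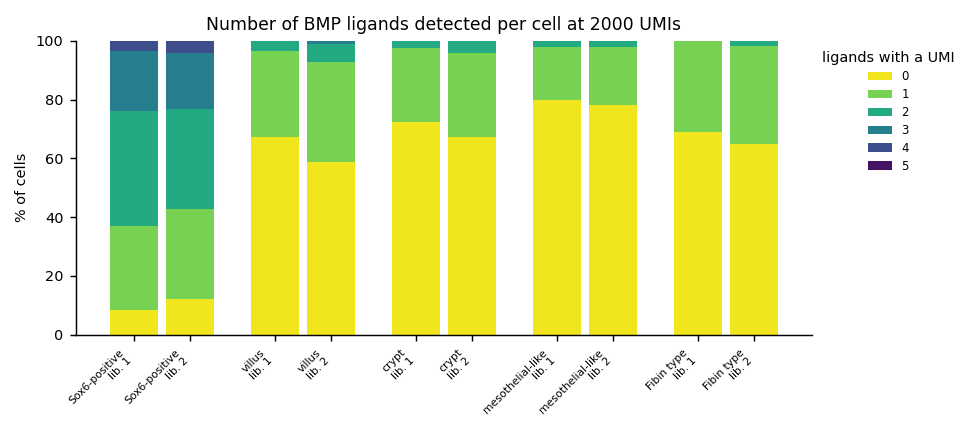
Percent of cells with UMIs of 0 to 5 of the ligands after thinning to 2000 UMIs, as stacked bars by group and library. In Sox6-positive cells 20.5% and 19.3% hold 3 ligands, a number found in at most 1.16% of the cells of any other rule group.

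The summed output of the 5 genes was 16.1 and 15.8 UMIs per 10000 in Sox6-positive cells and 1.12 to 3.33 in the other groups. UMIs count molecules and were not scaled to gene length. Bmp5 made up 51.0% and 57.1% of the ligand UMIs in Sox6-positive cells, Bmp7 26.6% and 20.5%. In Fibin type cells Bmp2 alone made up 92.5% and 79.1%. Crypt cells had a mixed set, with Bmp2 at 47.4% and 50.8%, Gdf6 at 27.1% and 21.8% and Bmp5 at 24.4% and 23.6%.

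Over the 14 library and group means, each centred on its library, Bmp5 and Bmp7 had a Pearson correlation of 0.977 and Bmp3 and Bmp7 of 0.943, while Gdf6 and Bmp5 had -0.647. The genes most like Bmp5 were Gdnf (0.996), Mylk (0.991) and Itga6 (0.990). For Bmp7 they were Efnb2 (0.992), Chst11 (0.990) and Col12a1 (0.990), and for Bmp3 Fbn2 (0.990), Tspan13 (0.988) and Myo1e (0.986). Bmp2 was most like Ints6l (0.957), Mical2 (0.931) and Cspg4 (0.906), and Gdf6 most like Acad11 (0.970), Cgnl1 (0.964) and Slco1a4 (0.963). These points share libraries and groups, so the values are descriptions.

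Other BMP pathway genes were read from lists of antagonists, receptors, response genes, related ligands and proteases. Of 13 antagonists and binding proteins tested, 5 were higher and 6 lower in Sox6-positive cells than in the mean of the others (38.4% and 31.1% of all genes tested), with a median difference of -0.01 against 0.01 over all genes. Nbl1, a DAN family BMP antagonist, was higher by 1.76 (SE 0.13, adjusted p = 1.2e-05, limma), Crim1 by 0.77, the BMP-binding Chrd by 0.35, Smoc2 by 0.24 and Smoc1 by 0.17. Of those lower, the decoy receptor Bambi differed by -0.12, Chrdl1 by -0.07, Chrdl2 by -0.06, Bmper by -0.05 and Vwc2 by -0.03. Of 4 response genes tested, 3 were higher and 0 lower: Id3 by 0.62, Id1 by 0.57 and Id2 by 0.33. The proprotein convertase Pcsk6 was higher by 1.31 and Pcsk5 lower (-0.55). The activin subunit genes Inhbb (0.76) and Inhba (0.50) were higher, and Gdf10 was lower (-0.43). Of 3 receptors and coreceptors tested, Eng was higher (0.24) and Acvrl1 lower (-0.09).

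Within Sox6-positive cells, 4 of the 13 antagonists and binding proteins tested were higher with Wif1 than with Adamts18, 2 were lower and 7 did not pass, where 29.4% of all genes passed. Smoc2 (1.61), Chrd (0.77) and Crim1 (0.69) were higher with Wif1, and Smoc1 (-0.53) and Fst (-0.61), an activin and BMP antagonist, lower, all past the threshold. Smoc1, Smoc2 and Chrd also stand in the marker list used to check Sox6-positive cells. Fst rested on library 2, where its level was 4.04 in cells with Adamts18 against 0.386 in library 1. Of the 4 response genes, against cells with neither marker, Id1 was higher with Adamts18 (0.26, SE 0.05, adjusted p = 0.00692, limma), Id4 was lower (-0.08, SE 0.02, 0.0403) and 2 did not pass, where 18.0% of all genes passed. In crypt cells, which had more Gdf6, 3 of these 13 genes were higher than in villus cells, among them the antagonist Chrdl1 (0.12) and the decoy receptor Bambi (0.10), 1 was lower (Vwc2, -0.03) and 9 did not pass, where 17.7% of all genes passed.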

How the data were processed

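The deposited table holds natural log values: the authors aligned 10X reads with Cell Ranger 3.1.0 to mm10 (GRCm38), filtered cells in Seurat, scaled each cell to 10000 UMIs and took the natural log of 1 plus the value. The 739 Smartseq2 columns, which the authors corrected onto the 10X values, were not used. A last row that ends early was left out. Taking a cell's lowest nonzero value as 1 UMI gave back whole UMIs (tolerance 0.01, 100% whole). The ligands, gene lists and rules were chosen with earlier results of these data known. Means per library and group of natural log values were fitted with limma 3.58.1 (R 4.3.3; trend, library as block; Benjamini-Hochberg over genes above 0 in at least 5% of cells of a group, at least 10 cells, the 13 rule genes left out of counts). The library number pairs groups because groups came from the same libraries. Thinning to 2000 UMIs used seed 11. Doublets were not called; cells over 2 times the library median were left out as an alternative. Genes of the pathway lists are named where they passed with 1 sign in both libraries. On simulated data for the Sox6-positive contrast over 1900 genes, limma recovered 98.5% of 200 genes changed by 0.5, with 6.64% of calls false. Intervals are exact (95%), and a count of 0 is limited at 3 counts. Some genes are not reported here.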

Additional observations from a re-analysis of the deposited data

How the results depend on the processing

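The 5 calls of Sox6-positive cells against the other groups kept direction and threshold under all 10 alternatives (limma, highest adjusted p 0.0409), as did Bmp2 in Adamts18 against neither under 9 (0.0252). Requiring 2 marker UMIs left under 10 Adamts18 cells in library 1, so its contrasts were not fitted. Below, W, A and N are Sox6-positive cells with Wif1, Adamts18 or neither, and C, V, M and F are crypt, villus, mesothelial-like and Fibin type cells. The causes were not tested.

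On log2 summed UMIs per 10000 plus 0.01, genes called higher numbered 12 in W-N (138 higher and 59 lower in the main fit, 57 lower here), 54 in A-N, 49 in C-V, 249 in M-V and 35 in M-C. No longer passing were Bmp3 (0.79) and Bmp7 (0.81) in W-N, Bmp5 (0.26) and Bmp7 (0.54) in A-N, Bmp3 in W-A (1.31), Bmp5 (-1.37) and Gdf6 (2.99) in C-V, and Gdf6 in F-C (-1.76) and M-F (1.77). Newly passing were Bmp2 in W-A (-0.73), M-V (-1.11) and F-C (0.85), Bmp7 in F-V (-1.44) and Bmp5 in M-C (-2.99).

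At 2000 UMIs, genes called higher and lower numbered 56 and 11 in W-N, 103 and 90 in A-N, 135 and 52 in C-V and 76 and 26 in M-C, with 169 lower in W-A and 149 lower in M-V. Bmp3 in W-N (0.17) and Bmp5 in C-V (-0.22) and F-C (-0.13) no longer passed, Bmp2 (-0.50) and Bmp5 (-0.33) in W-A newly passed, and Bmp7 turned in F-C (-0.0015) and M-F (0.0054). Mean detection in Sox6-positive cells at this depth was 25.0% for Bmp2, 25.0% for Bmp3, 78.0% for Bmp5, 47.8% for Bmp7 and 1.47% for Gdf6, and at full depth, with 2 or more UMIs of the gene required, 40.8% for Bmp2, 38.4% for Bmp3, 69.9% for Bmp7 and 1.16% for Gdf6. Joint detection at 2000 UMIs was 21.5% for Bmp3 with Bmp5, 14.4% for Bmp3 with Bmp7 and 39.9% for Bmp5 with Bmp7, and at full depth with 2 or more UMIs of each gene 37.9%, 32.6% and 69.1%.

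With 2 marker UMIs required, 119 genes were lower in W-N and 232 in C-V, Bmp2 newly passed in W-N (0.36), M-V (-0.24), F-V (0.26) and F-C (0.34), and Bmp5 in W-N (-0.034), Gdf6 in M-C (-0.036) and Bmp7 in M-F (0.00021) turned. Without cells meeting several rules, 239 genes were higher and 192 lower in M-C, Gdf6 no longer passed in M-V (0.024) and M-F (0.0071) and turned in M-C (-0.19), Bmp5 in M-C (-0.21) and Bmp2 in F-C (0.44) newly passed, and Bmp7 turned in M-F (0.028). Without cells holding another type's UMI, Bmp2 in F-C passed (0.32). Without the mean trend, Bmp5 passed in W-N (0.21) and M-C (-0.21). Without cells of 1 Sox6 UMI, added after the data were seen, 86 genes were higher in W-N, and Bmp3 in W-N (0.29) and Bmp5 (0.17) and Bmp7 (0.18) in A-N did not pass.

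Without the replicate block, 93 genes were lower in A-N and Bmp5 in F-C (-0.20, adjusted p = 0.0558) did not pass; no other call printed here changed. Single-library values of opposite sign, or 0, were seen for Gdf6 in M-C (-0.027 to 0.046), Bmp7 in F-C (-9.8e-05 to 0.016), and Bmp3 (0 to 0.0026), Bmp5 (-0.018 to 0.0096) and Bmp7 (-0.0036 to 0.00099) in M-F.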

Other observations

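Ligand UMIs were also read in cells described by other markers or by none. Cells with smooth muscle markers, a group defined after values were seen, numbered 27 in library 1 and 130 in library 2. Their Bmp5 level was 1.54 UMIs per 10000 in both libraries, their Bmp2 level 0.791 and 0.655, and their Bmp7 level 0 and 0.0644. The 199 and 1305 cells that no rule placed were shallower (median 4600 and 4368 UMIs) and held Bmp2 at 1.31 and 2.04, Bmp5 at 1.08 and 0.945 and Gdf6 at 0.0531 and 0.0819.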
